A study of Mus musculus with 12 samples.

Results

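RNA from mouse embryonic stem cells (ESCs) was examined for 10 genes of the oxygen-sensing pathway, out of 24480 genes listed in each library. The 10 genes were selected on their symbols and on how they stood in YAP against control cells in both experiments, so their values in those 2 contrasts are a description, and the calls listed there from the fit across all genes are no independent test of them. Of the 10, 4 encode parts of the pathway itself (Hif1a, Epas1, Vhl and Egln1), and 6 encode targets of hypoxia outside glycolysis that had higher values after both manipulations (Egln3, Bnip3, Bnip3l, Ndufa4l2, Ddit4 and Bhlhe40). Egln3 belongs on both sides, since it is a hypoxia target and also an oxygen sensor. Egln1, counted here with the pathway, also had higher values after both manipulations.

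The cells were E14Tg2a, an established feeder-independent ESC line grown in serum with leukemia inhibitory factor, and every group was transiently transfected. YAP KD cells received siRNAs against mouse Yap1, the gene of a transcriptional coactivator of the Hippo pathway, and CTR KD cells a scrambled siRNA. YAP OE cells received a plasmid in which the CAG promoter drives mouse YAP, and CTR OE cells a control plasmid, which the labels describe as GFP and the study's methods as an empty vector. Each of the 4 groups had 3 libraries from independent experiments, 12 libraries in all, and the 2 experiments shared no library. The labels give no further genotype, no time and no oxygen tension, and a single cell line stands for ESCs here. For the knockdown, the paper places the RNA profiles at the time of lowest YAP after siRNA transfection.

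In the presence of oxygen, prolyl hydroxylases (the Egln genes) modify the alpha subunits of hypoxia-inducible factor (Hif1a, Epas1), and the von Hippel-Lindau protein (Vhl) then marks them for degradation. When oxygen is short the subunits escape, pair with Arnt and bind hypoxia response elements in target genes. The control of the alpha subunits is thus mostly at the level of the protein, which these data do not contain. ESCs are known for a glycolytic metabolism, and several hypoxia targets are readily transcribed in them.

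Promoter sequences are shown for members with higher values in both experiments and, for comparison, for the gene of the main alpha subunit, because the core of the hypoxia response element can be read in them. RefSeq promoters (GRCm38.p6) were found for 6 of the 10 genes. The core was searched as ACGTG or GCGTG on both strands of the 250 bases before the start site, and each match is in capitals, with CACGC and CACGT being the cores read from the other strand. The palindrome CACGTG holds ACGTG on both strands and counts as 2 matches. The sequences are written 5′ to 3′ on the strand of the gene. Bnip3 (chr7:138909507-138909756, minus strand) had 5 matches, Egln3 (chr12:54203875-54204124, minus strand) had 1, Ddit4 (chr10:59951771-59952020, minus strand) had 2, Egln1 (chr8:124949255-124949504, minus strand) had 2 and Hif1a (chr12:73907617-73907866, plus strand) had 3.
Bnip3: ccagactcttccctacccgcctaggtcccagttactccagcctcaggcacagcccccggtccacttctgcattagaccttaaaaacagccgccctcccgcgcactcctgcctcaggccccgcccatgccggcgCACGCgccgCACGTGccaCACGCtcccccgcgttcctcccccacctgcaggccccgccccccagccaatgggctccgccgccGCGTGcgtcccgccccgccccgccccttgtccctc
Egln3: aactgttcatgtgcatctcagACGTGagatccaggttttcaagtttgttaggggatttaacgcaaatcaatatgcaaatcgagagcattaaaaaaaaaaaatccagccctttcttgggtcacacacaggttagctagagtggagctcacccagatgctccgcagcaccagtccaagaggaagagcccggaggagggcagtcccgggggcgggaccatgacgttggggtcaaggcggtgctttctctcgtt
Ddit4: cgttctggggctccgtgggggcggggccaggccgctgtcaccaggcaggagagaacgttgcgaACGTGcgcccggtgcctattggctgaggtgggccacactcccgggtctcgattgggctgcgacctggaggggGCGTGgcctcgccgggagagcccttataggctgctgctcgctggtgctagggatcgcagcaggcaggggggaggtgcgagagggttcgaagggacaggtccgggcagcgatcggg
Egln1: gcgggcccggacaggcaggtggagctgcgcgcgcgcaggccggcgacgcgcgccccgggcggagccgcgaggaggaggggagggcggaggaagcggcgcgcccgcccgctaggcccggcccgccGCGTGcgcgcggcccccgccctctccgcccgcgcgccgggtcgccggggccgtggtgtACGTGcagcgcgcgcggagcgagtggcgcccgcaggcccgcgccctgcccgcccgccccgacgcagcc
Hif1a: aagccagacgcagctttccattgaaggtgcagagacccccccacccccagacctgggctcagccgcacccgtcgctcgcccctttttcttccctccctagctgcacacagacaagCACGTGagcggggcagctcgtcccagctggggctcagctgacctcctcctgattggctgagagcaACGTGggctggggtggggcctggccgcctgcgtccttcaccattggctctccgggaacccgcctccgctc
In Bnip3 4 of the 5 matches lay close together, 117, 108, 107 and 99 bases before the start site, and the remaining one at 35 bases. The start site of the Hif1a entry lies 6543 bases inside the boundary of the gene. Vhl (chr6:113623744-113623993, plus strand) had no match. Either core was present in 5 of the 6 members and in 38.6% of 32851 promoters of the same length, and ACGTG alone in 5 of the 6 and in 16.6%. The TEAD motif GGAATG was in 0 of the 6 and in 12.6% of all promoters. Both cores contain CG, and the 6 windows held from 50.8% (Egln3) to 86% (Egln1) G and C. The shares over all promoters do not take this into account, so no enrichment is read from them. These matches are a description of the letters in this window, and binding was not measured here.

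Libraries held from 42926256 to 57240703 expected counts (estimated read counts per gene, with reads that match several genes shared between them), and from 17618 to 18167 genes had a count. Levels are given as CPM, counts scaled to a common library size with TMM factors, as mean ± SD of 3 libraries. The targeted gene followed its label. Yap1 stood at 116, 135 and 125 CPM in CTR KD against 58.5, 54.9 and 56.6 in YAP KD (log2 fold change -1.14, SE 0.0568). It stood at 134, 130.2 and 134 CPM in CTR OE against 277, 256 and 244 in YAP OE (log2 fold change 0.97, SE 0.0470). The summed level of 8 ESC markers was between 5494 and 6069 CPM in the 12 libraries, and 0 of the 8 passed the edgeR or the DESeq2 test in either experiment, although 5 (Dppa5a, Esrrb, Nanog, Tfcp2l1 and Zfp42) were lower at an unadjusted edgeR p under 0.05 in YAP KD and 1 (Klf4) in YAP OE. The 8 fibroblast markers summed to between 3.11 and 4.86 CPM. Their range was 3.11 to 3.24 CPM in CTR KD and 3.75 to 4.86 CPM in YAP KD, 0 of the 5 tested passed with edgeR or DESeq2, and 2 (Col1a1 and Col1a2) had an unadjusted edgeR p under 0.05. The part of these differences in the results was not tested, and in bulk RNA more cells of a type cannot be told apart from more RNA per cell.

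The level of the 10 genes was first compared in the 6 control libraries, as CPM per kilobase of effective transcript length. Hif1a was highest at 38.9 ± 1.26, followed by Bnip3l at 26.9 ± 0.976 and Bnip3 at 21.5 ± 2.88, the mitophagy receptors of the mitochondrial outer membrane (SD, n = 6). The libraries of these 2 receptors overlapped, whereas those of Hif1a lay above both. Ddit4 followed at 10.7 ± 1.17, then Bhlhe40 at 7.88 ± 0.503 and Vhl at 7.54 ± 0.370, the last 2 overlapping. Egln1 at 2.86 ± 0.164, Epas1 at 2.52 ± 0.234 and Egln3 at 2.28 ± 0.356 formed a low group in which neighbours overlapped. Ndufa4l2 was lowest at 0.759 ± 0.306, below every library of Egln3. All 10 genes had whole-number expected counts in every library, that is, no fraction of a read was assigned to them, and the smallest count of any member was 18, for Ndufa4l2.

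Of the 4 pathway genes, Hif1a, Epas1 and Vhl lay close to their controls in both experiments, and Egln1 was higher in both. Hif1a, the alpha subunit present in most cell types, had 177, 166 and 177 CPM in CTR KD and 185, 183 and 178 in YAP KD. In the overexpression it had 173, 183 and 172 CPM in CTR OE and 179, 167 and 167 in YAP OE. The YAP KD libraries all lay above their controls by a small step (log2 fold change 0.074, SE 0.0420), and those of YAP OE overlapped with theirs (-0.042, SE 0.0433). Epas1, which encodes the HIF-2 alpha subunit, had 14.04, 14.5 and 13.8 CPM in CTR KD and 14.1, 14.7 and 14.4 in YAP KD, with overlap. It had 12.005, 11.5 and 12.6 CPM in CTR OE and 11.9, 11.6 and 10.1 in YAP OE, also with overlap. The log2 fold changes of Epas1 were 0.033 (SE 0.0529) and -0.11 (SE 0.0694).

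Vhl, the substrate receptor of the ubiquitin ligase, had 19.5, 20.5 and 20.1 CPM in CTR KD and 20.3, 19.5 and 20.9 in YAP KD. In CTR OE it had 18.7, 18.0 and 18.7 CPM, and in YAP OE 19.5, 19.9 and 19.9. Its YAP KD libraries overlapped with the controls (log2 fold change 0.016, SE 0.0498) and its YAP OE libraries all lay above them (0.098, SE 0.0477). Egln1, the main prolyl hydroxylase of normal oxygen and itself a known hypoxia target, was the pathway gene with the largest YAP against control difference. It had 9.08, 9.81 and 8.76 CPM in CTR KD against 10.3, 10.7 and 11.3 in YAP KD. In the other experiment CTR OE had 10.1, 9.55 and 10.1 CPM against 11.1, 12.6 and 11.3 in YAP OE. All YAP libraries of Egln1 were above all controls in each experiment, by 0.23 (SE 0.0700) after knockdown and by 0.24 (SE 0.0661) after overexpression on the log2 scale.

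**Figure D1:**
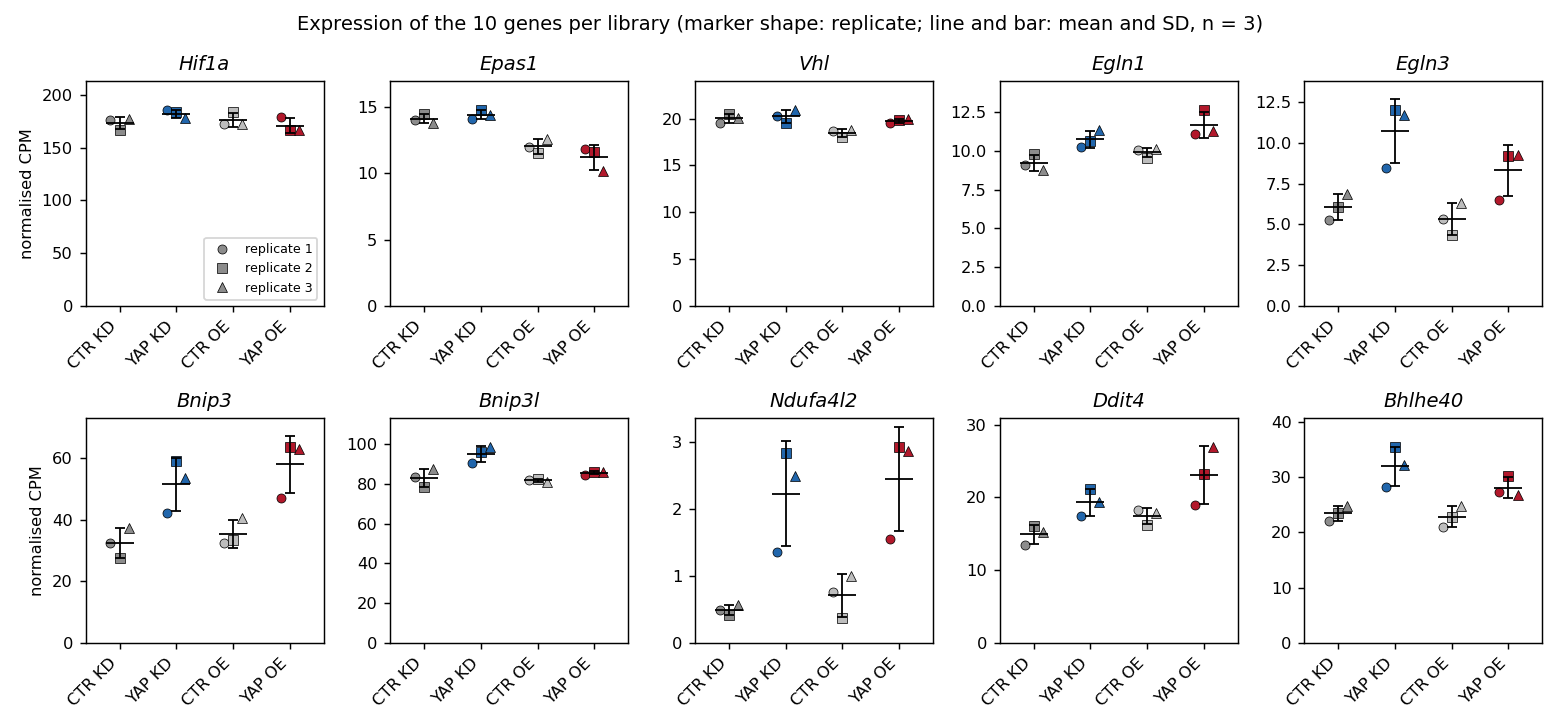
TMM-normalised CPM of the 10 genes (y axis, linear from 0) in each library of the 4 groups (x axis); marker shape gives the replicate, and the line and bar the mean and SD of 3 libraries. Hif1a, Epas1 and Vhl lie close to their own controls in each experiment. Epas1 is lower in both overexpression groups than in both knockdown groups. For Egln1 and the 6 genes from Egln3 to Bhlhe40, all YAP KD and all YAP OE libraries lie above their own controls.

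The largest difference among the targets was in Ndufa4l2, which encodes a hypoxia-induced paralogue of a subunit associated with cytochrome c oxidase and is known to restrain mitochondrial respiration. Its CPM was 0.483, 0.415 and 0.560 in CTR KD and 1.35, 2.84 and 2.50 in YAP KD. In the other experiment it was 0.753, 0.368 and 1.00 in CTR OE and 1.55, 2.93 and 2.87 in YAP OE. The lowest YAP library lay well above the highest control library each time, and the log2 fold changes of 2.21 (SE 0.292) and 1.77 (SE 0.279) correspond to 4.63-fold and 3.40-fold. Ndufa4l2 is also the gene with the least depth. The libraries held 22, 22 and 27 expected counts in CTR KD, 57, 125 and 134 in YAP KD, 39, 18 and 53 in CTR OE and 80, 128 and 161 in YAP OE.

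Egln3 encodes a prolyl hydroxylase that is strongly induced by hypoxia and acts as feedback on the pathway. It had 5.24, 6.07 and 6.87 CPM in CTR KD against 8.45, 11.99 and 11.7 in YAP KD, a difference of 0.83 on the log2 scale (SE 0.140). It had 5.33, 4.38 and 6.33 CPM in CTR OE against 6.50, 9.22 and 9.25 in YAP OE, a difference of 0.63 on that scale (SE 0.136). The groups did not overlap, but replicate 1 of YAP OE, at 6.50 CPM, was only just above replicate 3 of CTR OE.

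Bnip3 and Bnip3l encode related receptors that tether mitochondria to the autophagy machinery, and they differed in size of change. Bnip3 went from 32.5, 27.4 and 37.3 CPM in CTR KD to 42.1, 58.9 and 53.6 in YAP KD, and from 32.4, 33.3 and 40.7 in CTR OE to 47.1, 63.6 and 63.1 in YAP OE. Its log2 fold changes were 0.67 (SE 0.130) and 0.71 (SE 0.0986), close to each other although YAP moved in opposite directions. Bnip3l had 83.4, 78.5 and 87.7 CPM in CTR KD against 90.8, 96.2 and 98.6 in YAP KD, and 82.0, 82.3 and 81.1 in CTR OE against 84.8, 86.1 and 86.1 in YAP OE. No library overlapped with the other group here either, but the steps were small, at 0.198 (SE 0.0524) for YAP KD and 0.067 (SE 0.0353) for YAP OE as log2 fold changes.

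Ddit4 encodes an inhibitor of mTORC1 that responds to hypoxia and to other stresses. It had 13.5, 15.997 and 15.3 CPM in CTR KD and 17.4, 21.1 and 19.4 in YAP KD (log2 fold change 0.37, SE 0.0833). It had 18.3, 16.2 and 17.9 CPM in CTR OE and 19.0, 23.2 and 26.9 in YAP OE (0.40, SE 0.0936). Replicate 1 of YAP OE again lay just above the highest control. Bhlhe40, a repressor of the basic helix-loop-helix family that binds E-boxes, had 22.1, 23.5 and 24.7 CPM in CTR KD and 28.3, 35.5 and 32.1 in YAP KD (0.45, SE 0.0795). It had 21.0, 22.8 and 24.8 CPM in CTR OE and 27.3, 30.3 and 26.7 in YAP OE (0.29, SE 0.0628), again with no overlap.

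All 10 genes were measured and kept by the filter on low counts in each experiment. At the threshold used throughout, an edgeR adjusted p under 0.05 over all genes kept, 5 of the 10 were called higher in YAP KD (Egln3, Bnip3, Ndufa4l2, Ddit4 and Bhlhe40), where 2.71% of 14606 genes were called higher and 2.78% lower. The same 5 symbols were called higher in YAP OE, where 1.66% of 14804 genes were called higher and 0.473% lower. All 3 YAP libraries lay above all 3 controls for 8 of the 10 genes in each experiment, against 12.8% of genes for YAP KD and 10.3% for YAP OE. The genes called higher in both were 17 of 14521 tested in both (0.117%), and 5 of the 17 are these members. Because the genes were selected on these contrasts, nothing is read from the counts, and the median log2 fold change of the 10, 0.30 and 0.27, stands beside 0.0058 and -0.0025 over all genes. Ddit4 was the called member closest to the threshold in both experiments, and Bnip3l in YAP KD and Egln1 in YAP OE were the uncalled ones closest to it. Among the 4 pathway genes 0 were called in either experiment, 1 (Egln1) had an unadjusted edgeR p under 0.05 in each, and DESeq2 called 0. In the knockdown the count was 6 with DESeq2, which added Bnip3l, and 3 without replicate 2 or without replicate 3 of YAP KD. In the overexpression it was 2 without replicate 1 or 2 of CTR OE or replicate 2 of YAP OE. It was 3 without replicate 3 of YAP OE, and 3 with DESeq2 (Bhlhe40, Bnip3 and Ndufa4l2). The number of all genes called higher moved too when 1 library was left out. It was 147 to 528 in YAP KD, against 396 with all libraries, and 137 to 255 in YAP OE, against 246.

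**Figure D2:**
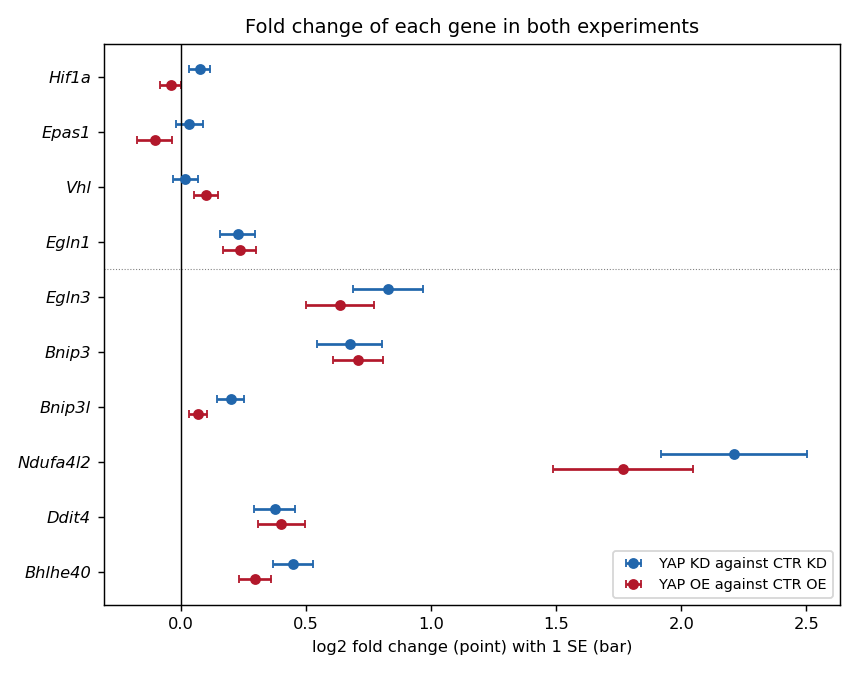
log2 fold change (x axis) of the 10 genes (y axis) in YAP KD against CTR KD (blue) and YAP OE against CTR OE (red); points are estimates and bars 1 SE, and the dotted line separates the 4 pathway genes from the 6 targets. Hif1a, Epas1 and Vhl lie near 0, and Ndufa4l2 is farthest to the right at 2.21 and 1.77.

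Within a group, the same library was often lowest or highest for most of the 6 targets. In YAP KD, replicate 1 had the lowest CPM of the 3 libraries for 6 of the 6 targets and replicate 2 the highest for 5. In YAP OE, replicate 1 was lowest for 5 of the 6 targets and replicate 2 highest for 4. Among the controls, replicate 3 was highest for 5 of the 6 targets in CTR KD and for 4 in CTR OE. Yap1 itself was 58.5, 54.9 and 56.6 CPM in replicates 1, 2 and 3 of YAP KD and 277, 256 and 244 CPM in those of YAP OE, so replicate 1, with the smallest steps for most targets, had the most Yap1 in each of these groups. With 3 libraries per group this order is a description. The share of all genes with the same order was not counted, so a difference of the whole library cannot be told apart from it.

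**Figure D3:**
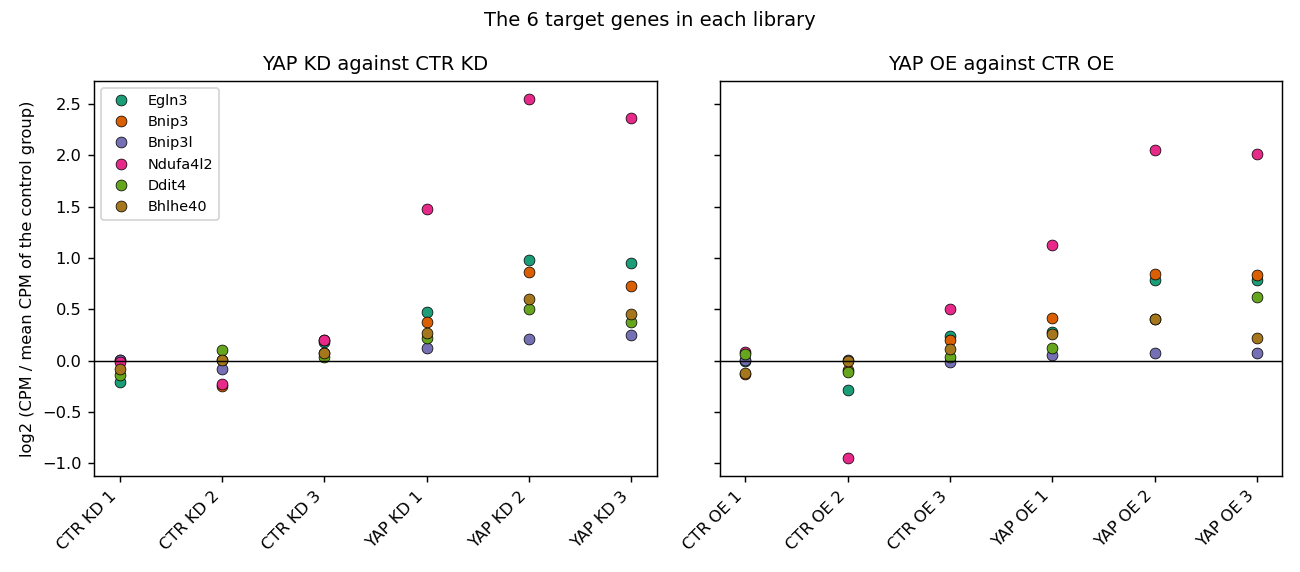
log2 ratio of the CPM of each of the 6 targets to the mean CPM of the control group (y axis) in each of the 6 libraries of the knockdown (left) and of the overexpression (right); each point is 1 gene in 1 library. Replicate 1 of YAP KD holds the lowest of the 3 YAP KD values for all 6 genes, and replicate 1 of YAP OE for 5 of the 6.

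The 5 genes outside the members whose profile over the 12 libraries was most like the mean profile of the 6 targets were Slc16a3 (Pearson r = 0.980), Pgk1 (0.980), Fam162a (0.969), Slc2a1 (0.965) and Ankrd37 (0.964), among 12414 genes. These are a lactate exporter, a glycolytic enzyme, a hypoxia-induced mitochondrial protein, a glucose transporter and an ankyrin-repeat hypoxia target. The points share libraries, depth and controls, and the correlations are given as a description. Profiles were centred within each experiment, not within each group, so they hold the YAP against control step that chose the targets. A gene higher in both experiments thus tends to rank high by construction, and a gene without that step tends to rank low. Of the pathway genes, which are not part of the profile, Egln1 had r = 0.85 and rank 54, Vhl 0.54 and rank 775, Hif1a 0.036 and rank 5646 and Epas1 -0.20 and rank 8616. Among the targets, r with the profile that contains them ran from 0.878 for Bnip3l to 0.986 for Egln3.

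The contrast of the control groups, CTR OE against CTR KD, was not used to choose the genes and was tested. It shares its libraries with the other contrasts, and the plasmid and the experiment cannot be told apart in it. By edgeR 0 of the 10 genes passed, where 0.733% of 14744 genes did. An unadjusted p under 0.05 was reached by 3 (Ddit4, Epas1 and Vhl), and DESeq2 called 0. Epas1 was lower in all CTR OE libraries, at 12.02 ± 0.533 against 14.1 ± 0.348 CPM, a log2 difference of -0.23 (SE 0.0567, edgeR adjusted p = 0.142), as was Vhl, at 18.5 ± 0.411 against 20.04 ± 0.4996 CPM (-0.11, SE 0.0475, edgeR adjusted p = 0.444). Ddit4 was higher in all CTR OE libraries, at 17.5 ± 1.08 against 14.9 ± 1.28 CPM (0.23, SE 0.0726, edgeR adjusted p = 0.275). Without replicate 2 of CTR KD, Ddit4 alone passed, with a log2 fold change of 0.28 and an edgeR adjusted p of 0.0422. The other 7 genes overlapped, including Ndufa4l2 (0.56, SE 0.331, edgeR adjusted p = 0.628).

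Other genes of the pathway were tested from lists that had been written with earlier results of these data known, so their counts are not independent evidence of a direction. Of 15 further components of HIF signalling (subunits, hydroxylases, the ubiquitin ligase and coactivators), 0 passed the edgeR test in YAP KD and 0 in YAP OE. An unadjusted p under 0.05 was reached by 2 in each, Arnt2 and Cul2 in YAP KD and Arnt and Egln2 in YAP OE, and DESeq2 called 0. In YAP KD the coactivator gene Crebbp passed without replicate 2 of CTR KD (log2 fold change 0.24, edgeR adjusted p = 0.0459). The median log2 fold change of the 15 was 0.014 in YAP KD and -0.024 in YAP OE. The partner subunit Arnt had log2 fold changes of 0.0031 (SE 0.0407) and -0.092 (SE 0.0380), and Arnt2 had -0.28 (SE 0.0984) and 0.038 (SE 0.0882). Hif3a, the third alpha subunit, had -0.085 (SE 0.0911) and 0.061 (SE 0.0948), and the hydroxylase Egln2 had 0.088 (SE 0.0511) and -0.13 (SE 0.0445).

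Some of the hypoxia-induced genes outside glycolysis and outside the members passed the test. Of 30 listed, 28 were tested, and in YAP KD 9 rose, 19 did not pass and 0 fell by the edgeR test (2, Nfil3 and Stc2, were lower at an unadjusted p under 0.05, and DESeq2 called 0 lower), with a median log2 fold change of 0.15. P4ha1, a collagen prolyl hydroxylase subunit, rose by 0.45 (SE 0.0533, edgeR adjusted p = 0.00182) and Ak4, a mitochondrial adenylate kinase, by 0.37 (SE 0.0444, edgeR adjusted p = 0.00194). Car12, a carbonic anhydrase, rose by 0.50 on the log2 scale, the membrane-binding protein gene Anxa2 by 0.42 and Higd1a, a mitochondrial inner-membrane protein, by 0.31. The others were Fam162a (0.23), the histone demethylase Kdm4b (0.23), the oxidoreductase of the endoplasmic reticulum Ero1l (0.23) and Jmjd6 (0.18). Between 4 and 5 rose when replicate 1 or 3 of CTR KD or any one YAP KD library was left out.

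In YAP OE 5 of the 28 rose and 0 fell by edgeR (1, Kdm3a, was lower at an unadjusted p under 0.05, and DESeq2 called 0 lower), with a median of 0.12. They were Anxa2 (log2 fold change 0.86, SE 0.0577, edgeR adjusted p = 1.18e-06), Stc2, a secreted glycoprotein (0.48), Ak4 (0.29), the collagen lysyl hydroxylase Plod2 (0.26) and Ero1l (0.19). Thus Ak4, Anxa2 and Ero1l passed in both experiments. The Ero1l calls were close to the threshold (edgeR adjusted p = 0.0497 in YAP KD and 0.0382 in YAP OE), and were lost without any one library of the knockdown and without any one of the overexpression except replicate 1 of YAP OE, with edgeR adjusted p up to 0.197. The count was 2 without replicate 1 of CTR OE and 8 without replicate 1 of YAP OE. In the same libraries 2 of 11 early lineage markers tested rose, Cdx2 from 0.148 to 0.628 CPM and Gata3 from 0.285 to 1.04 CPM. An unadjusted edgeR p under 0.05 was reached by 5 higher (Cdx2, Eomes, Gata3, Krt7 and T) and 1 lower (Pax6). The median log2 fold change of the 11 was 0.41. The summed level of the 12 listed was 28.0 to 31.3 CPM in CTR OE and 29.7 to 33.0 in YAP OE. Pax6 made up the largest part of this sum, with a mean of 17.1 CPM in CTR OE and 14.7 in YAP OE, so the sum says little about the markers at low levels. The part of these markers in the result was not tested.

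Not every classical target passed. Vegfa, the vascular growth factor, stood at -0.042 (SE 0.115) after knockdown and at 0.27 (SE 0.0968) after overexpression as log2 fold changes, with edgeR adjusted p of 0.895 and 0.208. Adm, which encodes adrenomedullin, was at or below 0.409 CPM in every library, with 0.95 (SE 0.286, edgeR adjusted p = 0.0959) and 0.054 (SE 0.285). Car9 was at or below 0.526 CPM. Ankrd37 had 0.67 (SE 0.169, edgeR adjusted p = 0.0523) and 0.51 (SE 0.154, edgeR adjusted p = 0.119), and DESeq2 called it higher in YAP KD.

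For the glycolytic branch, 13 of 22 genes tested rose in YAP KD and 4 in YAP OE (Slc16a3, Pgk1, Ldha and Slc2a1), with median log2 fold changes of 0.24 and 0.11. By edgeR 0 fell in either, and Slc2a3 was the 1 gene lower in YAP KD at an unadjusted p under 0.05 and by DESeq2, with 0 lower in YAP OE by both measures. Of the 13 in YAP KD, several were not called by edgeR in YAP OE. They were Tpi1 (log2 fold change in YAP KD 0.55), Aldoc (0.47), Pfkl (0.45), Pfkp (0.30), Aldoa (0.27), Pgam1 (0.26), Pkm (0.24), Gpi1 (0.21) and Pdk1 (0.21). The 4 called in YAP OE also rose in YAP KD. Their log2 fold changes in YAP KD and YAP OE were 0.90 and 0.47 for Slc16a3, 0.62 and 0.28 for Ldha, 0.52 and 0.35 for Pgk1, and 0.33 and 0.20 for Slc2a1. The test of the difference between the effects did not pass for these 4, with edgeR adjusted p from 0.0758 for Ldha to 0.380 for Pgk1. The knockdown count was 7 without replicate 3 of CTR KD or replicate 2 of YAP KD and 8 without replicate 3 of YAP KD. In the overexpression it was 1 without replicate 1 of CTR OE, 2 without replicate 3 of YAP OE, and 0 without replicate 2 of CTR OE. DESeq2 called 5 higher in YAP OE (Aldoa, Ldha, Pgk1, Slc2a1 and Slc2a3) and did not call Slc16a3. In the fit over all 12 libraries the YAP OE calls of Slc16a3 and Ldha were lost. The control groups also differed in this list. In CTR OE against CTR KD, 19 of the 22 genes had a positive log2 fold change and 3 a negative one (median 0.094). An unadjusted edgeR p under 0.05 was reached by 9, all higher in CTR OE, and DESeq2 called 4 (Ldha, Pfkl, Slc16a3 and Tpi1). Ldha and Slc16a3 passed the edgeR test there (0.39 and 0.56, edgeR adjusted p = 0.0160 and 0.0467). Anxa2 (0.77), Igfbp3 (0.41) and Krt7 (0.77) were also called higher, where 0.733% of 14744 genes were called in either direction. The count of listed genes called there was thus 5. It was 12 without replicate 2 of CTR KD, and 2 without replicate 3 of CTR KD or without replicate 1 or 3 of CTR OE.

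**Figure D4:**
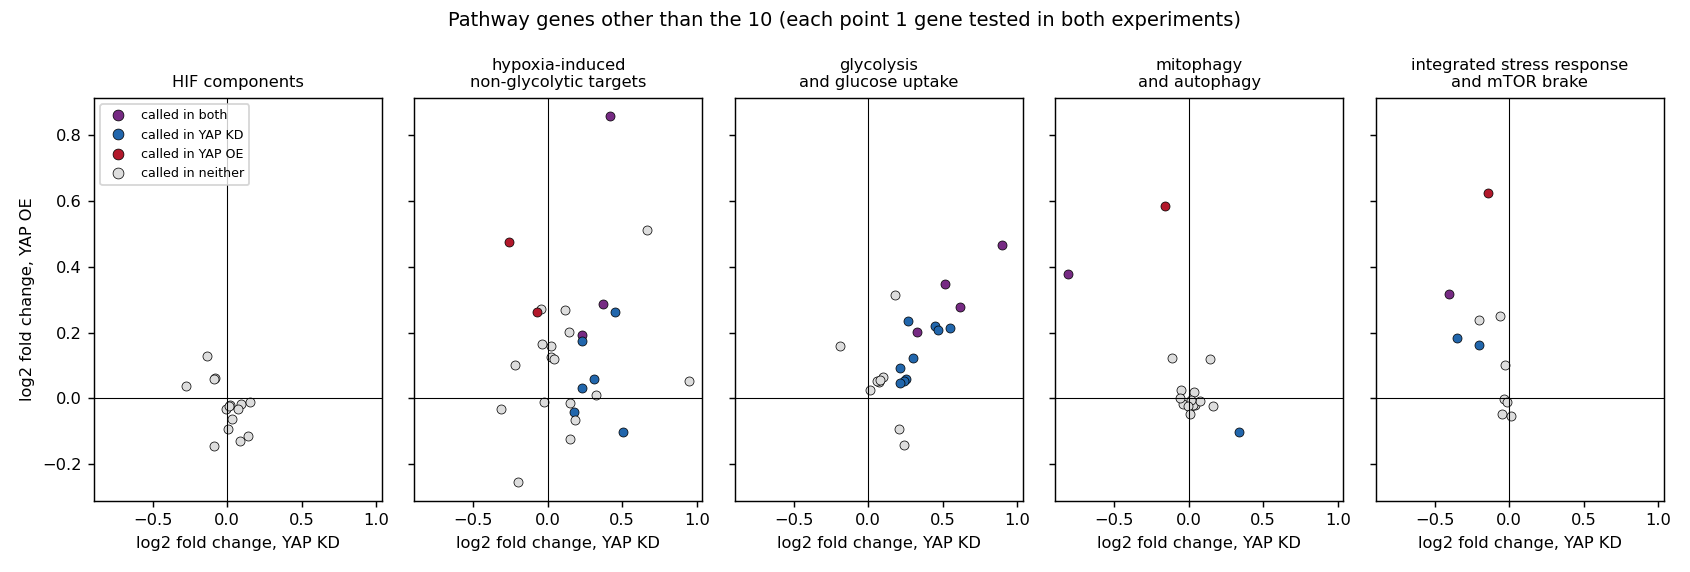
log2 fold change in YAP KD (x axis) against that in YAP OE (y axis) for genes of 5 lists without the 10 members; each point is 1 gene tested in both experiments, and colour gives the experiments in which it was called, in either direction. The 15 HIF components hold no called gene, and Park2 and Ddit3, called in both, lie in the quadrant of opposite signs.

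The relatives of the targets by function did not all follow them. Among 18 mitophagy and autophagy genes other than Bnip3 and Bnip3l, Optn rose (log2 fold change 0.34) and Park2, the gene of the ubiquitin ligase parkin, fell by 0.81 in YAP KD. In YAP OE Park2 rose by 0.38 and the autophagy receptor gene Calcoco2 by 0.58. Among 11 genes of the integrated stress response and the mTOR brake other than Ddit4, 0 rose by edgeR in YAP KD (0 at an unadjusted p under 0.05 and 0 by DESeq2) and 3 fell. They were Ddit3, a stress-induced transcription factor (-0.40), Ddit4l, the paralogue of Ddit4 (-0.35), and Asns, asparagine synthetase (-0.20). The Ddit4l call was lost without any one of the 6 knockdown libraries and with the replicate number as a block (edgeR adjusted p up to 0.132). In YAP OE 2 rose, Atf3 (0.62) and Ddit3 (0.32). The 3 became 0 without replicate 3 of CTR KD or of YAP KD and 1 without replicate 2 of YAP KD. The 2 became 0 without any one CTR OE library or without replicate 3 of YAP OE, and 1 without replicate 2 of YAP OE.

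For some of these relatives the effect differed between the experiments in the test of the difference, which 8.8% of 15049 genes passed in either direction. Atf3 did not pass it. The effect in YAP OE minus that in YAP KD was 1.19 for Park2 (edgeR adjusted p = 1.18e-05), 0.72 for Ddit3 (edgeR adjusted p = 0.000730) and 0.53 for Ddit4l (edgeR adjusted p = 0.00773). Bhlhe41, the paralogue of Bhlhe40, fell by 0.89 in YAP KD (edgeR adjusted p = 0.0431) and had 0.46 (SE 0.173, edgeR adjusted p = 0.244) in YAP OE, a difference of 1.35 (edgeR adjusted p = 0.00313). By edgeR it was the one gene called in YAP KD among 11 clock and repressor genes other than Bhlhe40, and DESeq2 called 0. This call was lost with total counts in place of TMM factors, with the replicate block (adjusted p = 0.138) and without any one library except replicate 3 of YAP KD, with edgeR adjusted p up to 0.159, and the log2 fold change without 1 library ran from -1.17 to -0.77. Ndufa4, the constitutive paralogue of Ndufa4l2, had 99.3 ± 1.19 CPM in CTR KD, 108.9 ± 3.36 in YAP KD, 100.7 ± 0.0849 in CTR OE and 97.8 ± 1.64 in YAP OE. Its log2 fold changes were 0.13 (SE 0.0398, edgeR adjusted p = 0.0896) and -0.041 (SE 0.0359, edgeR adjusted p = 0.701), where Ndufa4l2 had 2.21 and 1.77. Of the 5 tested mitochondrial genes that switch or act with respiration under hypoxia, other than Ndufa4l2, Higd1a rose in YAP KD and 0 were called by edgeR in YAP OE (0 at an unadjusted p under 0.05 and 0 by DESeq2).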

How the data were processed

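Total RNA of 12 libraries was sequenced. The authors mapped reads with STAR to mm10 and quantified curated RefSeq genes with RSEM. Versions and the strand setting are not given in the sources used here. The authors deposited expected counts (estimated read counts per gene, not normalized), which were used here. They also deposited TPM and FPKM values, which were not used, and transcript lengths, whose effective length gave the values per kilobase.

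Expected counts were rounded. Each contrast was fitted on its 6 libraries with edgeR 4.0.16 in R 4.3.3: filterByExpr, TMM factors, quasi-likelihood F test (two-sided), Benjamini-Hochberg adjustment over all genes kept, threshold 0.05. The SE is the absolute log2 fold change divided by the square root of F. The difference between the YAP effects was fitted over all 12 libraries. The test was tested on simulated counts. DESeq2 1.42.0 and other alternatives are given in the closing section. Profiles used log2 CPM with a prior count of 2, centred within each experiment, for genes with a mean of at least 1 CPM. Depth per library, from 42926256 to 57240703 expected counts, limits precision for low genes. A chi-square statistic compared replicates of the same group, at 3.39 to 24.2 per degree of freedom. It showed no library deposited more than once within a group. Libraries of different groups were not compared in this way. That the libraries are independent biological replicates rests on the labels. Promoters were RefSeq entries of GRCm38.p6.

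The members and lists were chosen with earlier results of these data known. Genes named were the 10 members, listed genes past the threshold, paralogues of members, and the 5 genes most like the targets. Other listed genes, such as Vegfa and Crebbp, were named from the lists after their values were seen.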

Additional observations from a re-analysis of the deposited data

Results flagged for a closer look

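Of 134 listed genes outside the members that were tested for a difference between the YAP effects, 18 passed with edgeR (adjusted p under 0.05), with 12 differences positive and 6 negative, where 8.8% of all genes tested passed. Values are the log2 effect in YAP OE minus that in YAP KD, and each is flagged because the effects differed between the experiments in this test. Among the hypoxia targets they were 0.74 for Stc2, 0.44 for Anxa2, 0.34 for Plod2, -0.27 for Kdm3a, -0.25 for Higd1a and -0.22 for Jmjd6. Among glycolysis genes they were 0.35 for the glucose transporter Slc2a3 and -0.33 for Tpi1. Among mitophagy genes they were 1.19 for Park2, 0.75 for Calcoco2, 0.24 for Pink1 and -0.44 for Optn. Among stress genes they were 0.72 for Ddit3, 0.53 for Ddit4l and 0.36 for Asns. The others were 1.35 for Bhlhe41, -0.17 for Ndufa4 and 2.04 for Cdx2. Over the settings and left-out libraries, no sign of these 18 changed. The call was lost in at least 1 of 4 alternatives or 12 refits without a library for Pink1, Ndufa4, Tpi1, Higd1a, Cdx2, Kdm3a, Plod2 and Jmjd6. The fit of this difference covered the members too, but their values are not given, since both contrasts had chosen them.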

How the results depend on the processing

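No called value changed sign under any alternative or left-out library. With DESeq2 the members called higher in YAP OE numbered 3, the stress genes higher 1, and the listed genes called in CTR OE against CTR KD 9. In the fit over all 12 libraries the YAP OE members called numbered 2, the stress genes higher 0, and in YAP KD 1 HIF component (Cul2) was called. With no filter beyond 1 count, 8 non-glycolytic targets and 8 glycolysis genes were called in YAP OE. Leaving out 1 library gave in YAP KD 3 to 6 members, 4 to 8 non-glycolytic targets, 7 to 13 glycolysis genes, 0 to 1 HIF components and 0 to 2 stress genes lower. In YAP OE it gave 2 to 5 members, 2 to 8 non-glycolytic targets, 0 to 6 glycolysis genes and 0 to 3 stress genes higher. In the control contrast it gave 0 to 1 members and 2 to 12 listed genes, and for the difference between effects 13 to 20. Over all genes, 97 to 595 were called higher and 96 to 666 lower in YAP KD under the other settings. In YAP OE these were 207 to 379 and 36 to 177. Leaving out 1 library gave 147 to 528 genes higher and 151 to 491 lower in YAP KD. In YAP OE it gave 137 to 255 higher and 17 to 98 lower. Where 1 library was left out, an arm held 2 libraries. The cause of these changes was not tested.

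Replicate numbers did not pair the libraries in the knockdown or between the controls, and in the overexpression same-numbered libraries were weakly positively correlated. Correlations of same-numbered libraries were -0.29 to -0.0085 in the knockdown, 0.018 to 0.047 in the overexpression and -0.16 to -0.014 between the controls. The number of libraries that correlated best with their own number was 0 of 6, 5 of 6 and 0 of 6. With the replicate number as a block, 3 non-glycolytic targets, 6 glycolysis genes and 0 stress genes lower were called in YAP KD, and 1 stress gene higher in YAP OE. Low depth limits the values of Ndufa4l2, Adm and Car9, and of listed genes too low to be tested, such as Epo and Lox.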
